A study of Mus musculus with 12 samples.

Results

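Interferon-inducible genes were followed in fetal mouse ovary as a set of 9 genes chosen by symbol (Ifi204, Ifi203, Ifit1, Ifit2, Ifit3, Ifitm2, Ifitm3, Isg15 and Irf7). The set and the gene lists used beside it were chosen with earlier results of these data known, and the p-values below do not allow for that choice. All 9 symbols matched a row of the deposited count table, out of 54532 genes. The libraries were bulk RNA-seq of ovaries at E15.5 (E for embryonic day) from mice of the strain label Tg(Pou5f1-EGFP)2Mnn, in which green fluorescent protein (GFP) under Pou5f1 (OCT4) regulatory sequence marks germ cells. Dams carrying the embryos were injected intraperitoneally on 4 consecutive days, from E12.5 to the day of collection, with 10 µg of dexamethasone (dex, which activates the glucocorticoid receptor) for each g they weighed, or with as much saline. Cells with GFP (germ cells) were sorted from cells without it (somatic cells), which gave 4 groups of 3 libraries: germ cells after saline, germ cells after dex, somatic cells after saline and somatic cells after dex. Each library came from ovaries pooled over litters, and the somatic fraction is a mixture of cell types.

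Interferons are secreted proteins that cells release on sensing foreign or misplaced nucleic acid. Type I interferons bind a receptor made of Ifnar1 and Ifnar2, the kinases Jak1 and Tyk2 pass the signal on, and a complex that holds Irf9 binds the interferon-stimulated response element (ISRE) in the promoters of target genes. Many of these targets also have a basal level without any added interferon. Glucocorticoids are widely used to suppress inflammation, and dex given to a dam crosses the placenta. Among the 9 genes, Irf7 is a transcription factor that amplifies interferon production, Isg15 is a ubiquitin-like modifier, Ifit1, Ifit2 and Ifit3 encode antiviral proteins with tetratricopeptide repeats, Ifitm2 and Ifitm3 encode membrane proteins that hinder viral entry, and Ifi204 and Ifi203 belong to the PYHIN (Ifi200) family, whose best known members bind DNA. Ifitm3, also called Fragilis, is a familiar early marker of mouse primordial germ cells.

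The genes lie in 4 chromosomal regions of GRCm38, and all 9 are annotated as protein coding. Ifi204 (ENSMUSG00000073489, chr1:173747293-173766943) and Ifi203 (ENSMUSG00000039997, chr1:173920407-173942672) sit on the minus strand of chromosome 1. Ifit2 (ENSMUSG00000045932, chr19:34550694-34576419), Ifit3 (ENSMUSG00000074896, chr19:34583531-34588731) and Ifit1 (ENSMUSG00000034459, chr19:34640871-34650009) follow each other on the plus strand of chromosome 19. Ifitm2 (ENSMUSG00000060591, chr7:140954837-140955987), Ifitm3 (ENSMUSG00000025492, chr7:141009586-141010770) and Irf7 (ENSMUSG00000025498, chr7:141262706-141266481) are on the minus strand of chromosome 7, and Isg15 (ENSMUSG00000035692, chr4:156199424-156200818) is on the minus strand of chromosome 4. The annotated span of Irf7 overlaps Phrf1 on the opposite strand, which held 27529 counts over the 12 libraries against 255 for Irf7. Because the strand setting of the counting is not given in the sources used here, the Irf7 values are uncertain, and so are those of Ifi203, which overlaps Mndal on the same strand.

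Promoter windows from RefSeq (GRCm38.p6, 250 bases before to 50 bases after the annotated start) were found for 8 of the 9 genes, all but Ifi204. The ISRE was searched on both strands as GAAA, any 2 bases and GAAA again, which reads TTTC, any 2 bases and TTTC from the other strand. These 8 genes have 10 windows, and 6 of the genes held at least 1 match in any of their windows. Of 32851 windows in the genome 3.44% held a match, which is a share of windows and not of genes. The gamma-activated site (a motif of genes that respond to type II interferon), searched as TTC, any 3 bases and GAA, was found for 2 of the 8 genes, Ifit2 and Ifitm3, against 8.3% of all windows. These stretches of 30 bases are shown because they hold the letters that group the genes by their promoters, and the capitals mark the ISRE matches.
Isg15 (chr4:156200871-156200900, minus strand): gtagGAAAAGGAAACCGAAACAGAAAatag
Ifit1 (chr19:34640785-34640814, plus strand): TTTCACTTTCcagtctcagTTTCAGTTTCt
Ifit3, match farther from the start (chr19:34583363-34583392, plus strand): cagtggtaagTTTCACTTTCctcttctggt
Ifit3, match nearer to the start (chr19:34583397-34583426, plus strand): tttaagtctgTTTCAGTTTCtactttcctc
Ifitm2 (chr7:140955988-140956017, minus strand): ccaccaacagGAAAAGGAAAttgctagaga
Ifitm3 (chr7:141010714-141010743, minus strand): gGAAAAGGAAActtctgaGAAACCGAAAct
Ifi203, the downstream of its 2 windows (chr1:173942508-173942537, minus strand): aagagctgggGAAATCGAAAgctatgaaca
Isg15 held 3 overlapping matches, the first beginning at -78 from the start, and Ifit1, Ifit3 and Ifitm3 held 2 each. The Ifitm3 matches lie just past the annotated start, the first at +3, and those of the other genes lie before it. A match describes these letters only, and it was not found in the windows of Ifit2 and Irf7 or in the upstream window of Ifi203. The downstream window of Ifi203 (chr1:173942443-173942742) also spans the annotated start of Mndal, at 173942491 on the same strand.

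Totals ran from 14658503 to 18245507 counts per library, so that 3 counts, used here as the floor of detection, corresponded to 0.169 to 0.201 CPM (counts per 1000000 counts of the library, scaled with TMM factors). The sorted fractions carried the markers of their labels. Germ cell markers summed to between 2775 and 3329 CPM in germ cell libraries. In somatic libraries they summed to between 6.67 and 11.1 CPM after saline and to between 16.9 and 24.8 CPM after dex. Of the 6 of these markers tested between the somatic groups, only Dazl passed an adjusted p of 0.05 in edgeR (log2 3.43, SE 0.21, higher after dex). After saline, 8 of the 9 markers were higher in germ cells at that threshold, and Dnd1 was lower (log2 -0.71, SE 0.31).

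The 9 genes spanned a wide range of levels in somatic cells. Measured per length as the deposited FPKM (fragments scaled to transcript length and library depth), the order in somatic cells after saline was Ifitm2 at 216 ± 23.8 (SD, n = 3), Ifitm3 at 76.4 ± 4.32, Ifit2 at 3.04 ± 0.272, Ifi204 at 1.80 ± 0.540, Isg15 at 1.27 ± 0.731, Irf7 at 0.658 ± 0.170, Ifit3 at 0.321 ± 0.251, Ifi203 at 0.247 ± 0.0269 and Ifit1 at 0.221 ± 0.0138. Ifitm2, Ifitm3 and Ifit2 did not overlap with the next gene in this order in any library. Below them the libraries of neighbours overlapped between Ifi204 and Isg15, between Isg15 and Irf7, between Irf7 and Ifit3, between Ifit3 and Ifi203 and between Ifi203 and Ifit1, so this part of the order is not resolved. Ifit1, Ifit3 and Isg15 rested on at most 27 counts in any somatic library.

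**Figure D1:**
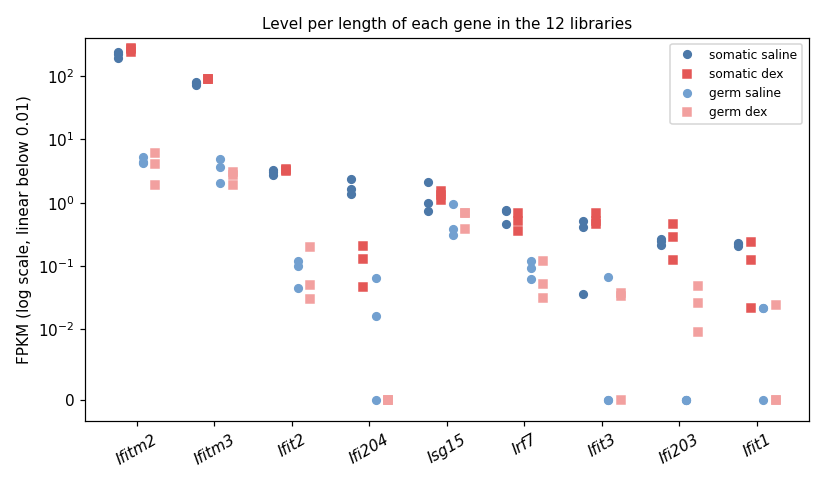
Deposited FPKM (y axis, log scale that is linear below 0.01) of each of the 9 genes (x axis, ordered by the mean in somatic cells after saline) in the 12 libraries, with 1 point per library and colour and shape for the group. Ifitm2 and Ifitm3 stand above all other genes in all 4 groups, and the germ cell points lie below the somatic points for every gene except Isg15, Ifi204, Ifit1 and Ifit3, where single libraries overlap.

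Germ cells held far less of most of these transcripts than somatic cells. The question here was how basal expression of the set differs between the sorted fractions, without drug. The 9 genes together summed to 6.65 ± 0.860 CPM (SD, n = 3) in germ cells after saline and to 225 ± 19.0 CPM in somatic cells after saline. Most of the somatic sum came from Ifitm2 and Ifitm3, with means of 146 and 53.4 CPM, so it mainly describes these 2 genes. Of the 9 genes, 7 passed the low-count filter and were called lower in germ cells (edgeR quasi-likelihood test, p adjusted over all genes tested with the Benjamini-Hochberg (BH) procedure and at or under 0.05), where 86.1% of all genes tested were called in some direction. Ifi204, Ifi203, Ifit2 and Irf7 passed that filter only through the somatic libraries, where they were high, so this count is fixed in part by the filter and is no result about the set.

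Ifitm2 and Ifitm3, the membrane proteins, were the only members with 10 or more counts in every germ cell library. After saline Ifitm2 measured 159, 151 and 128 CPM in the somatic libraries and 2.78, 2.86 and 3.37 CPM in the germ cell libraries. Its log2 difference was -5.58 (SE 0.12, adjusted p = 1.01e-14 in edgeR). Ifitm3 measured 56.2, 53.8 and 50.2 CPM in somatic cells and 1.36, 3.32 and 2.46 CPM in germ cells, which gave a log2 value of -4.46 for germ against somatic cells (SE 0.19, adjusted p = 9.57e-12 in edgeR). For neither gene did the cell types come near to overlapping, so Ifitm3 did not mark the germ cell fraction at this stage.

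Ifit2 stood at 13.4, 12.3 and 11.2 CPM in somatic cells after saline against 0.388, 0.466 and 0.171 CPM in germ cells, a log2 difference of -5.14 (SE 0.30, adjusted p = 3.2e-10 in edgeR). Irf7, the transcription factor, stood at 3.02, 1.81 and 2.85 CPM against 0.452, 0.233 and 0.343 CPM, a log2 difference of -2.87 (SE 0.43, adjusted p = 1.82e-05 in edgeR). Ifi204 was at 4.97, 8.83 and 6.01 CPM in somatic cells while the germ cell libraries held 0, 1 and 4 counts, a log2 difference of -5.94 (SE 0.52, adjusted p = 4.92e-08 in edgeR) that rests on germ cell library 3, since it was -7.43 without that library. Germ cells after saline held 0 counts of Ifi203 in all 3 libraries against 24, 27 and 31 counts in somatic cells, which puts Ifi203 at least 9.5-fold lower in germ cells when the floor of 3 counts per library is used for them. Ifit2, Irf7 and Ifi204 passed the filter only through the somatic libraries. Their direction is fixed in part by that filter, and their p-values are not read as support for it.

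Isg15 was the member closest between the cell types. Its germ cell libraries held 11, 4 and 5 counts and its somatic libraries 9, 12 and 27 counts after saline, so the groups overlapped. The log2 difference of -1.28 (SE 0.56) passed with a BH-adjusted p in edgeR of 0.0444, but the call was lost in 6 of 10 alternatives. These were the replicate block (0.0841), DESeq2 (0.147) and leaving out the germ cell libraries 2 or 3 or the somatic libraries 2 or 3 of the saline group. Over all 10 alternatives, those that kept the call included, the BH-adjusted p ran from 0.0147 to 0.306. Isg15 in germ cells was at 41.3% of the somatic mean after saline, where the other 8 genes lay between 0% and 13.4%.

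Ifit1 and Ifit3 fell under the low-count filter of that test, and their germ cell libraries held at most 2 counts each. Measured against the floor, germ cells were at least 3.37-fold lower for Ifit1 and at least 3.2-fold lower for Ifit3 after saline. In the same libraries the summed stromal markers of germ cells stood at 0.753% of their somatic level, the pregranulosa markers at 6.61% and the macrophage markers at 13.1%. The part of somatic RNA carried over in the sort in the low germ cell values of the 9 genes was not tested.

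After dex the picture between cell types was alike in direction. The set summed to 5.70 ± 1.56 CPM in germ cells against 259 ± 10.97 CPM (SD, n = 3) in somatic cells. That somatic sum came mostly from Ifitm2 and Ifitm3, with means of 175 and 63.2 CPM. Of the set, 7 genes passed the filter and were called lower in germ cells, against 84.3% of all genes tested called in some direction. All but Ifitm2 and Ifitm3 passed only through the somatic libraries, so this count too is no result about the set. Their log2 differences ran from -6.07 (SE 0.22) for Ifitm2 to -1.20 (SE 0.46) for Isg15, the latter with an BH-adjusted p in edgeR of 0.0297 that held in 2 of 10 alternatives and was lost with the replicate block (0.0894), with DESeq2 (0.168), without the low-count filter (0.109), without any 1 of the 3 germ cell libraries or without somatic library 2 or 3. The comparisons after saline and after dex share no libraries.

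**Figure D2:**
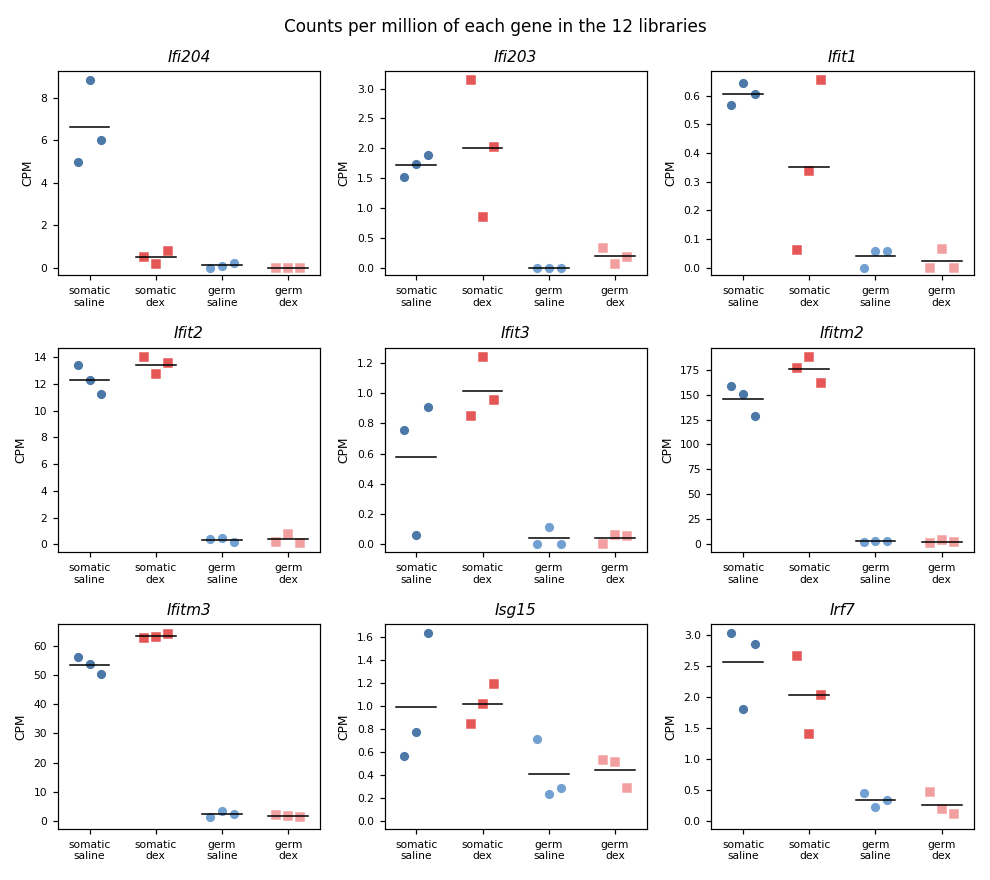
CPM of each gene (y axis, own scale per panel) in the 12 libraries, with 1 point per library, blue circles for saline, red squares for dex and a line at the mean of each group of 3. The somatic dex points of Ifi204 lie below all somatic saline points, those of Ifitm2 and Ifitm3 lie above them, and in the other 6 panels the somatic groups overlap. This describes the points, and the share of all genes that separate in this way is not given.

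Among the 9 genes dex was followed by a large fall of Ifi204 in somatic cells and by no other change past the threshold. The question here was how the set responds to glucocorticoid in the fraction that expresses most of it. All 9 genes could be tested, 1 was called lower and 0 were called higher, which is to be read against 8.18% of all 16556 genes tested being called in some direction. The median log2 fold change over the 9 genes was 0.12, beside 0.00 over all genes tested. With DESeq2 in place of edgeR, 2 of the 9 genes were called. The fraction responded to the drug, since all 5 of a list of known glucocorticoid receptor targets were higher after dex, for instance Zbtb16 with a log2 fold change of 6.94, Klf9 with 3.16 and Fkbp5 with 1.29.

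**Figure D3:**
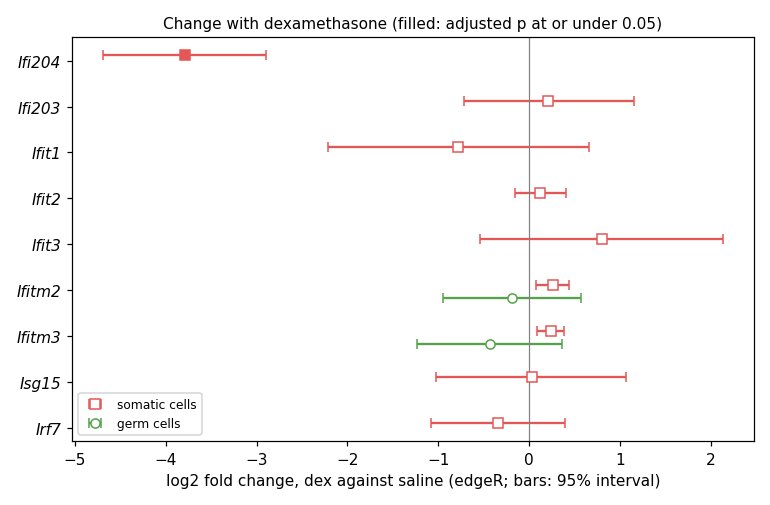
Log2 fold change of dex against saline (x axis) for each gene (y axis) from the edgeR fit in somatic cells (red squares) and germ cells (green circles, only the 2 genes with enough counts), with bars for the 95% interval and filled symbols for an adjusted p at or under 0.05. Only the somatic value of Ifi204, at -3.79, is filled.

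Ifi204 held 79, 137 and 99 counts in somatic cells after saline and 8, 3 and 13 counts after dex, that is 4.97, 8.83 and 6.01 CPM against 0.483, 0.169 and 0.773 CPM. The highest dex library lay well under the lowest saline library, which is a description, since the share of all genes that separate in this way is not given. The mean after dex was 0.0719 of that after saline, and the log2 fold change was -3.79 (SE 0.41, 95% interval -4.69 to -2.90, adjusted p = 6.85e-05 in edgeR). The call held in 11 of 11 alternatives, with log2 fold changes between -4.33 and -3.40. Dex and saline libraries came from different litters, and a difference between litters at the Ifi204 locus cannot be told apart from an effect of dex.

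Ifitm2 and Ifitm3 moved slightly the other way without passing the threshold. Ifitm2 measured 159, 151 and 128 CPM after saline and 177, 188 and 162 CPM after dex, a log2 fold change of 0.26 (SE 0.08, 95% interval 0.08 to 0.44, adjusted p = 0.0815 in edgeR). It was called in 4 of 11 alternatives, namely without the low-count filter, with DESeq2, with a block for the replicate number (adjusted p = 0.0247 in edgeR) and without dex library 3 (0.0174). Ifitm3 measured 56.2, 53.8 and 50.2 CPM after saline and 62.6, 63.0 and 64.1 CPM after dex, a log2 fold change of 0.24 (SE 0.07, 95% interval 0.09 to 0.39, adjusted p = 0.0543 in edgeR), and was called in 0 of 11 alternatives. For both genes every dex library lay above every saline library, by a few CPM in the case of Ifitm2. The share of all genes whose groups separate in this way is not given here, so the separation is a description only. These intervals leave room for no more than a 0.44 rise on the log2 scale.

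The IFIT genes, whose products act on viral RNA and translation, showed no shared direction. Ifit2 held 213, 190 and 185 counts after saline and 232, 226 and 228 after dex, a log2 fold change of 0.12 (95% interval -0.16 to 0.41, adjusted p = 0.661 in edgeR). Ifit1 held 9, 10 and 10 counts after saline and 1, 6 and 11 after dex, with overlapping groups and a log2 value of -0.78 (95% interval -2.21 to 0.66). Ifit3 held 12, 1 and 15 counts after saline and 14, 22 and 16 after dex, with a log2 value of 0.80 (95% interval -0.54 to 2.13). The counts of both genes were low, and the interval of Ifit1 includes a 2-fold fall and that of Ifit3 a 2-fold rise.

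Isg15 and Irf7 did not separate the treatments either. Isg15 counts were 9, 12 and 27 after saline and 14, 18 and 20 after dex, a log2 value of 0.03 (95% interval -1.02 to 1.07, adjusted p = 0.985 in edgeR). Irf7 counts were 48, 28 and 47 after saline and 44, 25 and 34 after dex, a log2 value of -0.34 (95% interval -1.08 to 0.40, adjusted p = 0.637 in edgeR). Ifi203, the second PYHIN gene of the set, held 24, 27 and 31 counts after saline and 52, 15 and 34 after dex, which put its dex libraries on both sides of the saline libraries (log2 0.21, 95% interval -0.72 to 1.15).

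Macrophage markers were lower in the same somatic libraries in which Ifi204 was lower. Of 23 markers, all of them tested, 12 were called lower and 0 higher after dex, and 22 had a value below 0. The median log2 fold change was -0.90, beside 0.00 over all genes tested. This count and that of the other leukocyte markers below are to be read against 8.18% of all genes tested being called in some direction. Their summed level was 311, 367 and 388 CPM after saline and 102, 223 and 211 CPM after dex. Among the markers that define these cells, Adgre1 (the antigen F4/80) changed by -1.78 (SE 0.32), Csf1r (the receptor for colony-stimulating factor) by -1.31 (SE 0.26) and Fcgr1 (a high-affinity antibody receptor) by -1.84 (SE 0.38), on the log2 scale. The values ran from -2.77 for Ms4a7 to 0.99 for Cd163, and the -3.79 of Ifi204 lay outside that range. The summed marker level after dex was 0.504 of that after saline, against 0.0719 for Ifi204. Per 100 CPM of summed macrophage markers, Ifi204 measured 1.60, 2.41 and 1.55 CPM in the saline libraries and 0.473, 0.0756 and 0.366 CPM in the dex libraries, so the highest dex value lay below the lowest saline value. Markers of other leukocytes went the other way, with sums of 33.1 to 54.2 CPM after saline and 89.9 to 225 CPM after dex, and with 3 of the 6 tested called higher. The part of the macrophage markers and of the other leukocyte markers in the fall of Ifi204 was not tested. In bulk libraries fewer cells of a type and less RNA per cell cannot be told apart.

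**Figure D4:**
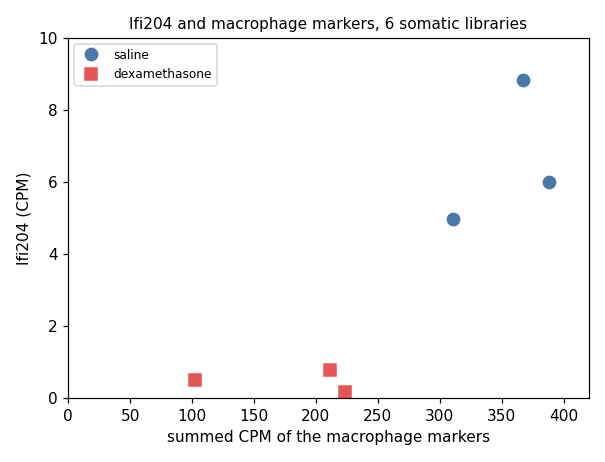
Ifi204 in CPM (y axis) against the summed CPM of 23 macrophage markers (x axis) in the 6 somatic libraries, with blue circles for saline and red squares for dex. Both measures separate the groups, and among the dex libraries the lowest Ifi204 value, 0.169 CPM, belongs to the library with the highest marker sum of its group, 223 CPM. The share of all genes that separate in this way is not given.

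The genes whose pattern was most like that of Ifi204 were Ighm (Pearson r = 0.959), U2af1 (r = 0.952) and Fcgr1 (r = 0.951) over the 12 libraries, out of 16147 genes compared on log2(CPM + 0.5), and Frzb (r = 0.993), Tmem200a (r = 0.993) and Prrt4 (r = 0.992) over the 6 somatic libraries. For Ifitm3 the nearest genes over 12 libraries were Sema3a, Npr3 and Adamts12, and for Ifitm2 they were Sgce, Parva and Stra6, all with r of at least 0.998. Over the 12 libraries such values mostly follow the split between germ and somatic cells. Within the 6 somatic libraries Ifitm2 and Ifitm3 had r = 0.88 with each other, and Ifi204 and Ifitm3 had r = -0.90. With 2 treatments of 3 libraries each, these are descriptions and carry no test.

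The fall of Ifi204 was set beside its neighbours, since the Ifi200 genes lie next to each other on chromosome 1. Ifi207, the gene next to Ifi204, held 43, 61 and 72 counts in somatic cells after saline and 15, 22 and 39 after dex, a log2 fold change of -1.30 (SE 0.37, adjusted p = 0.0467 in edgeR). Ifi202b held 28, 45 and 35 counts after saline and 7, 21 and 7 after dex, a log2 fold change of -1.73 (SE 0.48, adjusted p = 0.0415 in edgeR). Both calls stood close to the threshold and each was lost in 5 of 11 alternatives, those without any 1 of the 3 saline libraries and without dex library 1 or 2 for Ifi207 (adjusted p up to 0.196 in edgeR) or without dex library 1 or 3 for Ifi202b (up to 0.193). Aim2, the family's inflammasome sensor, stood at 153, 163 and 158 counts after saline and 138, 181 and 138 after dex (log2 -0.15, adjusted p = 0.645 in edgeR). Mndal held 23, 8 and 13 counts against 14, 34 and 17 (log2 0.46, adjusted p = 0.672 in edgeR). Within 1 Mb of Ifi204, 9 of 17 neighbours with at least 10 counts in all could be tested, and Ifi207 and Ifi202b were the 2 called. Of all genes tested in somatic cells, 8.18% were called in some direction, and the region as a whole was not tested. Several genes of this family are close copies of each other, and how the counting treated reads that fit more than 1 of them is not given in the sources used here, so their values are uncertain.

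In germ cells the family gave few counts, and for several of its genes these were unevenly placed. The genes named here were chosen after their values were seen, and the share of all genes with counts in 1 treatment only is not given. Ifi214 held 5, 19 and 13 counts in germ cells after saline and 0 in each of the 3 dex libraries, which puts it at least 3.82-fold lower after dex with the floor of 3 counts per library. Ifi208 held 4, 12 and 12 counts after saline and 0 in each dex library, at least 2.89-fold lower. Ifi204 itself held 0, 1 and 4 counts after saline and 0 in each dex library, Ifi202b held 0, 2 and 3 counts and then 0 in each, and Ifi209 held 6, 2 and 0 counts and then 0 in each. Ifi203 went the other way, with 0 counts in each saline library and 5, 1 and 3 after dex, and Mndal, which overlaps it, had 0 counts in each saline library and 4, 0 and 0 after dex, as the pseudogene Ifi203-ps had 0 in each and then 1, 1 and 0. Other genes of the family showed no such split in germ cells. Aim2 held 0, 1 and 2 counts after saline and 1, 3 and 1 after dex. Ifi207 held 2, 2 and 1 counts after saline and 0, 2 and 1 after dex, and Ifi205 held 0 counts after either treatment. Somatic cells held 0 counts of Ifi214 in all 6 libraries and at most 3 counts of Ifi208 in any. None of the 11 relatives on the list passed the filter in the germ cell test, and the cause of the pattern was not tested. The limit set by the different litters holds for all these genes, the somatic Ifi207 and Ifi202b values included.

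**Figure D5:**
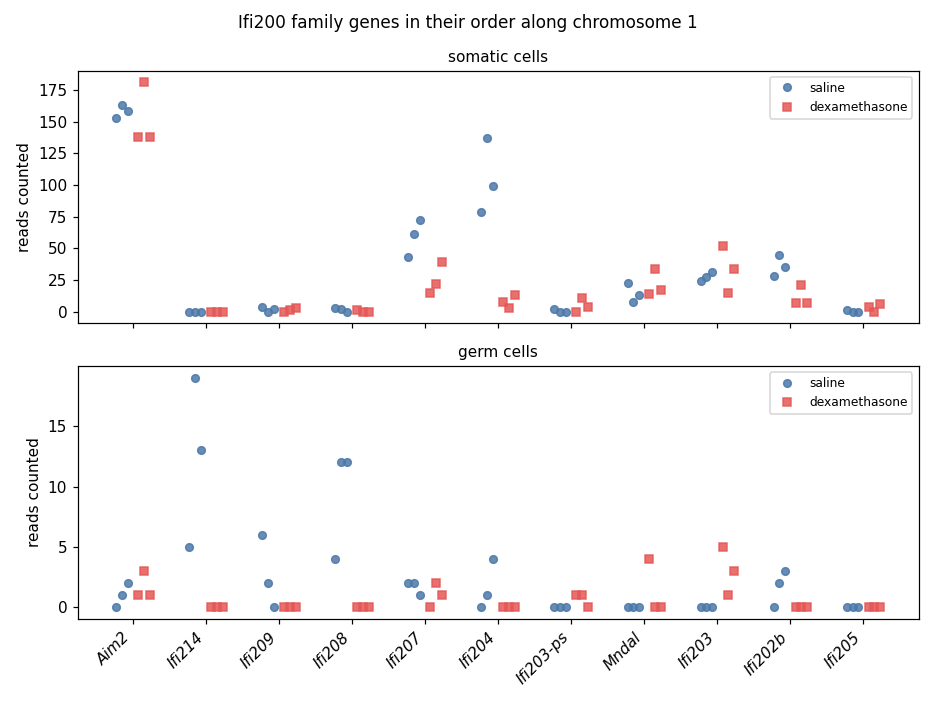
Reads counted (y axis) for 11 genes of the Ifi200 family in their order along chromosome 1 (x axis) in somatic cells (upper panel) and germ cells (lower panel, own scale), with 1 point per library, blue circles for saline and red squares for dex. In somatic cells Ifi204, Ifi207 and Ifi202b have all dex points below all saline points, and in germ cells Ifi214 and Ifi208 have counts after saline only and Ifi203 after dex only. This describes the points, and the share of all genes that separate in this way is not given.

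In germ cells themselves dex was followed by no change of the 9 genes past the threshold. Only Ifitm2 and Ifitm3 had enough counts, and 0 of these 2 were called with edgeR, with 0 at an unadjusted p under 0.05 and 0 called with DESeq2, where 0.208% of all genes tested were called. Ifitm2 measured 2.78, 2.86 and 3.37 CPM after saline and 1.27, 3.94 and 2.62 CPM after dex, a log2 fold change of -0.19 (95% interval -0.95 to 0.57, adjusted p = 0.870 in edgeR). Ifitm3 measured 1.36, 3.32 and 2.46 CPM after saline and 2.14, 1.87 and 1.28 CPM after dex, a log2 fold change of -0.43 (95% interval -1.23 to 0.36, adjusted p = 0.684 in edgeR). In both cases the groups overlapped. The other 7 genes held at most 12 counts in any germ cell library, and none of them passed the filter, so a change in them was not tested.

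The effect of dex in germ cells was also set against its effect in somatic cells, as an interaction over all 12 libraries. None of the 9 genes passed, with a smallest BH-adjusted p in edgeR of 0.202 and 2 genes at an unadjusted p under 0.05, and DESeq2 called 0, against 1.62% of all genes tested. The share of all genes at such an unadjusted p is not given. All but Ifitm2 and Ifitm3 entered this fit only through the somatic libraries, and these 7 had too few counts for the germ cell test. For them the absence of a call is no result. The difference, germ minus somatic, was -0.70 (SE 0.29, adjusted p = 0.265 in edgeR) for Ifitm3 and -0.46 (SE 0.29, adjusted p = 0.489 in edgeR) for Ifitm2, on the log2 scale. For Ifi204 and Ifi203 a germ cell group stood at 0 counts, so the fitted difference depends on the prior count and no direction is read from it. The smallest adjusted p, and 1 of the 2 genes at an unadjusted p under 0.05, belong to Ifi203. The somatic fall of Ifi204 is therefore not shown to be particular to somatic cells.

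Of 100 genes of the wider interferon pathway tested in somatic cells, 2 were called higher and 5 lower after dex, a share to be read against the 8.18% of all genes. Of these 100, 30 had an unadjusted p under 0.05 in edgeR. The share of all genes tested at such a p is not given, here or for the lists below, so these counts are descriptions only. Of 15 interferon ligand genes, 8 had 0 counts in all 12 libraries, none could be tested, and the highest count in any library was 9, for Ifne in germ cells. None of the 6 receptor genes tested was called with edgeR or DESeq2, and 0 had an unadjusted p under 0.05, with Ifnar1 at 0.01 (SE 0.07) and Ifnar2 at 0.08 (SE 0.08) on the log2 scale. Among 6 genes of the signal relay behind the receptors, Jak1 was higher after dex, at 246, 233 and 232 CPM after saline and 343, 330 and 301 CPM after dex (log2 0.45, SE 0.07, adjusted p = 0.000725 in edgeR). Jak1 was also the 1 gene of these pathway lists called in the interaction (germ minus somatic -0.55, SE 0.09, adjusted p = 0.00638 in edgeR).

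Among 6 other interferon regulatory factors tested, Irf2, which can repress interferon-responsive genes, was higher after dex, at 18.9, 17.3 and 19.9 CPM after saline and 42.4, 40.1 and 39.2 CPM after dex (log2 1.11, SE 0.10, adjusted p = 8.04e-06 in edgeR). Irf8, a factor of myeloid cells, was lower, at 5.35, 5.997 and 6.55 CPM after saline and 2.54, 3.49 and 4.10 CPM after dex (log2 -0.82, SE 0.24, adjusted p = 0.0486 in edgeR), a call lost in 6 of 11 alternatives, namely the filter at 1 CPM in 3 libraries and the fits without any 1 saline library or without dex library 1 or 2 (up to 0.185). Of 15 nucleic acid sensors and adaptors tested, 0 were called with edgeR or DESeq2 and 3 had an unadjusted p under 0.05, and of 8 feedback inhibitors 0 were called and 4 had such a p. Of 62 other interferon-induced genes, 52 were tested, and 13 had an unadjusted p under 0.05 in edgeR. Of the 52, 0 were higher and 2 were lower, with a median of -0.16 beside 0.00 over all genes and 15 values above 0. Those 2 were the guanylate-binding proteins Gbp9 (24.1, 24.1 and 19.7 CPM after saline, 14.6, 15.49 and 11.8 after dex, log2 -0.70, SE 0.14, adjusted p = 0.00657 in edgeR), called in 11 of 11 alternatives, and Gbp2 (log2 -0.64, SE 0.17, adjusted p = 0.0362 in edgeR), whose call was lost without any 1 saline library and without dex library 1 or 2 (up to 0.175).

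No relative of the IFITM or IFIT genes was called. All 5 IFITM relatives were tested in somatic cells and 0 were called with edgeR or DESeq2, with 2 at an unadjusted p under 0.05 and a median of 0.22, and Ifitm1 stood at 55.5, 50.04 and 54.1 CPM after saline and 53.8, 62.6 and 69.7 CPM after dex (log2 0.22, SE 0.09, adjusted p = 0.197 in edgeR). None of the 3 IFIT relatives had enough counts. In germ cells 59 genes of these pathway lists were tested and 0 were called after dex with edgeR or DESeq2, with 3 at an unadjusted p under 0.05.

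The low germ cell levels of the 9 genes did not extend to every part of the pathway. After saline, Ifnar1 averaged 184 ± 3.43 CPM (SD, n = 3) in germ cells against 169 ± 6.71 CPM in the somatic fraction, while Ifnar2, the other chain of the receptor, was lower in germ cells by a log2 difference of -5.69 (SE 0.20, adjusted p = 1.19e-12 in edgeR). Jak1 was higher in germ cells (log2 0.55, SE 0.07, adjusted p = 2.52e-06 in edgeR). Of 50 other interferon-induced genes tested, 42 were lower and 4 were higher in germ cells, where 86.1% of all genes tested were called in some direction. The median log2 difference of the list was -3.72, beside 0.00 over all genes tested. Only 24 of the 62 listed genes passed the filter in the germ cell test, so the direction of this count is fixed in part by the filter. Highest above the somatic level among the 4 higher genes was Parp12, an antiviral member of the PARP family. Its mean was 154 ± 9.85 CPM (SD, n = 3) in germ cells against 18.5 ± 1.72 CPM in the somatic fraction (log2 3.07, SE 0.09, adjusted p = 1.45e-13 in edgeR).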

How the data were processed

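The authors aligned read pairs of poly-A selected RNA to mm10 with HISAT2 2.0.5 and counted fragments per gene with featureCounts 1.5.0-p3, and they deposited these raw counts together with FPKM values computed from counts, gene length and depth. The authors' own DESeq2 1.20.0 comparison tables (fold changes and p-values) were not used. Counts were tested with edgeR 4.0.16 (R 4.3.3, quasi-likelihood, TMM, filterByExpr, Benjamini-Hochberg over all genes tested, adjusted p at or under 0.05), on the 6 libraries of each pairwise comparison and on all 12 for the interaction. SE is the log2 value divided by the root of F. FPKM was used only to order genes by level. A fold against a group at 0 uses a floor of 3 counts per library. Alternatives were RLE scaling, no filter, at least 1 CPM in 3 libraries, DESeq2 1.42.0, a replicate block and leaving out each library. The fits were tested on simulated counts. The members and gene lists were chosen with earlier results of these data known. All 9 members were named, as were pathway genes called after dex and the 3 genes most correlated with a member. Of 14 PYHIN relatives, 11 symbols matched (Mnda, Pydc3 and Pydc4 did not).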

Additional observations from a re-analysis of the deposited data

How the results depend on the processing

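Of the log2 fold changes recomputed, 421 kept direction and call, 35 lost the call, 4 gained it and 30 changed sign, and no value that was called changed sign. The member count in somatic cells after dex went from 1 to 2 without the low-count filter, with DESeq2 and with the replicate block, and from 1 to 2 over fits without 1 library. With at least 1 CPM in 3 libraries, 4 members in place of 7 were called between cell types after dex, because fewer could be tested. Counts over all genes were 420 without the filter and 158 with DESeq2 in germ cells (35 in the main fit, 17 to 81 without 1 library), 754 to 1881 without 1 library in somatic cells (1354), and 727 without the filter, 620 with DESeq2 and 143 to 384 without 1 library for the interaction (314). The cause was not tested. Replicate numbers were not shown to pair libraries (correlations of deviations 0 to 0.17, over 0.1 in 4 of 12 pairs), although 9 of 12 pairs, and 6 of 6 between germ and somatic cells, correlated best with their own number, a hint from the data and not from the design. Values that changed sign, none of them called, ranged without 1 library from -0.61 to 0.12 for Ifitm2 in germ cells, from -0.26 to 0.59 for Isg15 and -0.26 to 0.57 for Ifi203 in somatic cells, and for the interaction from -0.54 to 1.49 for Ifi204 (0.70 with DESeq2), -1.83 to 0.84 for Ifit1, -1.20 to 0.40 for Ifit2, -1.25 to 1.91 for Ifit3, -0.45 to 0.73 for Isg15 and -0.76 to 0.30 for Irf7, the last 6 on few germ cell counts.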
